A study of Mus musculus with 12 samples.

Results

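The genes described here are 31 genes of cholesterol and fatty acid synthesis, measured by RNA sequencing in the mouse dorsal raphe (DR), the midbrain nucleus that holds many of the serotonergic neurons of the brain. They were chosen by name, for their place in the pathways, but with earlier results of these data known. They are 31 of the 24421 genes listed in the deposited files, of which 20056 had a count in some library. 7 belong to the mevalonate pathway (Acat2, Hmgcs1, Mvk, Pmvk, Mvd, Idi1 and Fdps). 11 lead from farnesyl pyrophosphate to cholesterol (Fdft1, Sqle, Lss, Cyp51, Tm7sf2, Msmo1, Nsdhl, Hsd17b7, Ebp, Sc5d and Dhcr7). 6 sense or carry sterols and switch the pathway on or off (Srebf1, Srebf2, Scap, Insig1, Insig2 and Stard4). The other 7 make or modify fatty acids (Acly, Acaca, Fasn, Elovl5, Elovl6, Scd1 and Scd2). All 31 passed the filter on low counts.

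The study compared mice without functional STAT3 in cells that express the serotonin transporter (STAT3 KO, Sert Cre/+; Stat3 fl/fl, n = 8) with littermates (control, Sert Cre/+; Stat3 fl/+, n = 4). The controls thus carried Cre and a floxed Stat3 allele as well. All mice were adult, were single-housed and were C57 x 129 hybrids, and each group held females and males in equal number. Cre is driven by the serotonin transporter gene, so the deletion is aimed at cells that express this gene. The paper states that it could not show a full lack of STAT3 in each serotonergic cell. The RNA came from whole pieces of tissue with all their neurons, glia and vessels. In such bulk RNA, fewer cells of a type and less RNA per cell cannot be told apart.

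Cholesterol cannot be taken up into the brain from plasma in useful amounts, and neurons and glia make their own. Acetyl-CoA is joined by Acat2 and Hmgcs1 and passes through the mevalonate pathway to isoprenoids, which squalene synthase (Fdft1) and squalene epoxidase (Sqle) commit to sterols. When sterols run low in the endoplasmic reticulum, Scap carries the membrane-bound factors encoded by Srebf1 and Srebf2 to the Golgi, where they are cut and released to the nucleus, and the Insig proteins hold this complex back when sterols are plentiful. Srebf2 is best known for genes of cholesterol synthesis and the main Srebf1 product for genes of fatty acid synthesis. In white matter, oligodendrocytes use both pathways heavily for myelin.

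Each library held 24379588 to 29645210 counts on genes, and 3 counts, the floor used here, equalled 0.101 to 0.123 CPM (the count of a gene divided by the counts on all genes of that library, times 1000000). The serotonergic markers Tph2 and Slc6a4 were present in all 12 libraries, at no less than 539.5 and 150.5 CPM. Gene counts of Stat3 did not separate the groups (control 65.9 ± 1.26 CPM, SD, n = 4; KO 66.6 ± 2.90 CPM, SD, n = 8; two-sided exact permutation p = 0.693). The deletion removes only some exons of Stat3, so a count over the whole gene does not check the labels. The paper itself reported less RNA of the deleted exons in KO by qRT-PCR, and less STAT3 staining in serotonergic neurons. No gene of the 8 marker lists used below was at 0 in any library. Some libraries stood apart. In KO 8, genes with a transcript GC content of at least 55% were lower, relative to genes of at most 45%, by 0.25 on the log2 scale (median deviation from each gene's mean), against -0.067 to 0.100 in the other 11 libraries. Choroid plexus genes (4 genes, mean log2 CPM) were at 3.72 in KO 16 and 3.35 in KO 8, against 0.46 to 1.63 in the other 10. Forebrain neuron genes (5 genes) were at 3.61 in control 4, against 0.38 to 0.55 in the other controls and -0.0065 to 1.73 in KO. Values without KO 6 or KO 8 are given beside the results that they moved most.

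Levels of the genes were compared per kb of their longest coding transcript, in CPM per kb. Scd2, the main stearoyl-CoA desaturase of the brain, stood alone at 524 CPM per kb (491.9 to 557.3 over the 12 libraries). Its lowest library lay above the highest of any other of the 31 genes. Hmgcs1, HMG-CoA synthase at the entry to the mevalonate pathway, followed at 121 CPM per kb (104.5 to 135.2). Acly, which makes cytosolic acetyl-CoA from citrate, was at 107 CPM per kb, and Scd1, the second desaturase, at 94.0 CPM per kb. Each of these 3 overlapped in range with the next and is not separated from it. Msmo1, the sterol C4-methyl oxidase, came next at 73.6 CPM per kb (64.3 to 82.2), and its lowest library lay above the highest of Insig1 (60.6). From Insig1 at 55.9 CPM per kb down to Tm7sf2 at 10.5 CPM per kb, every gene overlapped with the next in the order, so this long middle stretch is a gradual decline with no step. Fasn, fatty acid synthase, and Srebf2, Sqle, Fdps and Pmvk were all between 43.3 and 44.8 CPM per kb. The lowest were Hsd17b7 (7.74 CPM per kb), Stard4 (7.15), Acaca, acetyl-CoA carboxylase (6.94), and Idi1, isopentenyl diphosphate isomerase (3.22), whose highest library (3.87) lay below the lowest of Acaca (5.53). Transcript lengths come from GENCODE vM21, and a gene that uses a shorter transcript in this tissue would have a higher level per kb than given. Scd1 and Scd2 are near copies of each other, and reads that fit both may have been divided or dropped in counting.

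**Figure D1:**
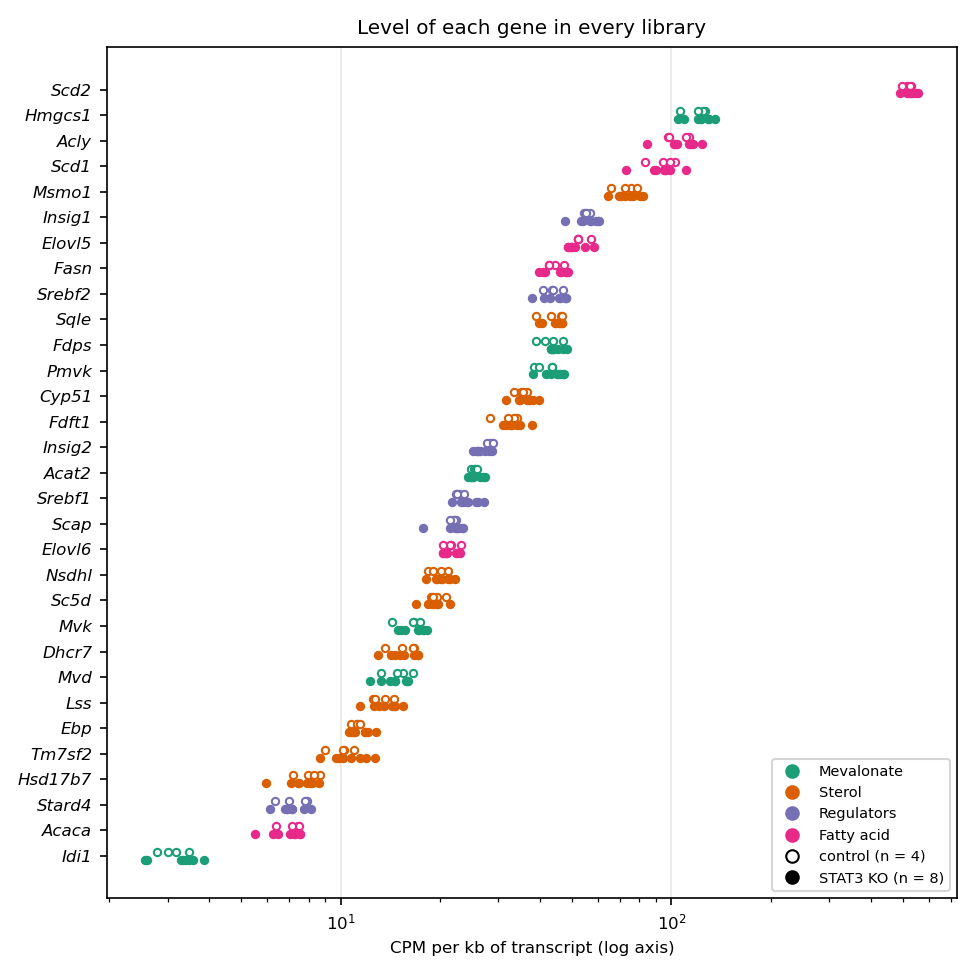
Level of each of the 31 genes in CPM per kb of transcript (log axis), 1 point per library, open for control (n = 4) and filled for STAT3 KO (n = 8), coloured by role. Scd2 sits apart between 491.9 and 557.3, Idi1 lies lowest, and open and filled points overlap in every gene.

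Whether loss of STAT3 in SERT-expressing cells moved these pathways was asked first. No gene of the 31 differed between genotypes after adjustment over all 15453 genes tested (edgeR quasi-likelihood test with Benjamini-Hochberg adjustment, smallest adjusted p of the 31 = 0.616), where 0% of all genes were called. 15 of the 31 were higher in KO and 16 lower, against 49.4% of all genes higher, and the median log2 fold change was -0.00071 for the 31 and -0.0011 for all genes. With 1 library left out in turn, the median of the 31 was positive in 5 of 12 cases and ranged from -0.014 to 0.024, and that of all genes from -0.0025 to 0.0053, with 10 to 21 of the 31 higher in KO. With library size alone as normalisation, 21 of the 31 were higher, and the median was 0.022 both for the 31 and for all genes. At an unadjusted p below 0.05 there was 1 of the 31, against 7.66% of all genes tested. By the exact permutation test over the 495 splits of the animals there was also 1, against 7.23% of all genes. In none of the 31 were the 2 groups free of overlap, against 0.492% of all genes. DESeq2 called 6 genes for genotype and limma-voom 0, none of them among the 31. The paper reported more genes for genotype with its own DESeq2 run, and the cause of this difference was not tested. Every 95% interval of a fold change lay between -0.28 and 0.28 on the log2 scale, so a larger difference in tissue RNA lay outside the interval of each gene.

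In the mevalonate pathway 5 of 7 genes were higher in KO and 2 lower, with none past the unadjusted threshold. Hmgcs1 was at 367.4, 416.6, 431.9 and 437.4 CPM in the 4 controls and at 362.0 to 468.4 CPM (median 426.1) in KO. The KO range enclosed that of the controls on both sides, and the log2 fold change was 0.0058 ± 0.067 (SE). Pmvk, phosphomevalonate kinase, had the largest value upward in this group, with 46.0 to 52.1 CPM in controls and 45.7 to 56.4 CPM in KO (log2 fold change 0.073 ± 0.058, SE, exact permutation p = 0.162).

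Among the 11 sterol enzymes 6 were higher and 5 lower. Sqle was at 107.4, 119.6, 127.7 and 128.8 CPM in controls and at 109.4 to 129.1 CPM (median 124.7) in KO. Hsd17b7, a 3-keto sterol reductase, had the largest difference here, with 33.1, 36.9, 38.4 and 39.9 CPM in controls and 27.4 to 39.6 CPM (median 35.5) in KO. Its low end was KO 6 alone (27.4 CPM), the next KO being at 32.7 CPM, and the log2 fold change was -0.11 ± 0.081 (SE, 95% interval -0.28 to 0.067, edgeR adjusted p = 0.830, exact permutation p = 0.390). It was -0.060 without KO 6 and -0.064 without control 11.

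Of the 6 regulators, 2 were higher and 4 lower. Insig2, which holds the Scap complex in the endoplasmic reticulum, was the gene past the unadjusted threshold. Its levels were 74.5, 75.7, 77.3 and 77.6 CPM in controls, and in KO 67.9 CPM at the lowest, 70.9 CPM at the median and 77.2 CPM at the highest. 6 of 8 KO lay below every control, and the other 2, KO 16 (75.9 CPM) and KO 8 (77.2 CPM), lay within the control range. The log2 fold change was -0.11 ± 0.040 (SE, 95% interval -0.19 to -0.021, unadjusted edgeR p = 0.0179, adjusted p = 0.616, exact permutation p = 0.0384). With 1 library left out in turn, the exact permutation p was 0.018 to 0.103 and was not below 0.05 in 9 of 12 cases. The 2 KO within the control range were the 2 with raised choroid plexus genes. Their part in the result was not tested. Without control 3 the log2 fold change was -0.096 and with library size alone as normalisation it was -0.084, and in neither was Insig2 past the unadjusted threshold (edgeR adjusted p = 0.979 and 0.638). With limma-voom it was -0.12 (limma adjusted p = 0.310) and without KO 8 -0.12 (edgeR adjusted p = 0.360), and with GC centring the exact permutation p was 0.0101. Its paralog Insig1 did not follow (log2 fold change -0.0047 ± 0.055, SE). The Insig1 to Insig2 ratio per kb was 1.96 ± 0.0711 in controls (SD, n = 4) and 2.11 ± 0.172 in KO (SD, n = 8), with 6 of 8 KO above all controls, and did not pass (exact permutation p = 0.149). Srebf1 was at 96.1 to 101.3 CPM in controls and 93.6 to 116.7 CPM in KO, with 5 of 8 KO above all controls (log2 fold change 0.077 ± 0.053, SE, exact permutation p = 0.109). Without KO 8, Srebf1, Insig2 and Elovl5 were all past the unadjusted threshold, 3 of 31, against 10.8% of all genes in that fit, and none after adjustment.

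In the fatty acid branch 2 of 7 genes were higher and 5 lower. Elovl5, an elongase of polyunsaturated fatty acids, was at 144.7, 144.8, 145.0 and 159.4 CPM in controls and 135.1 to 162.8 CPM (median 138.9) in KO. 6 of 8 KO lay below all controls in Elovl5, KO 16 lay within their range and KO 8 lay above them all, and the log2 fold change was -0.078 ± 0.052 (SE, 95% interval -0.19 to 0.033, edgeR adjusted p = 0.782, exact permutation p = 0.347). It was -0.037 without control 3, the highest control, and -0.11 without KO 8. Fasn was at 428.7, 429.0, 448.2 and 475.1 CPM in controls and 399.7 to 489.3 CPM (median 464.9) in KO, with a log2 fold change of -0.00071 ± 0.060 (SE). Scd2, the most abundant of all, was also the steadiest, with 2715 to 2878 CPM in controls and 2683 to 3040 CPM in KO (log2 fold change 0.0095 ± 0.034, SE). The Scd2 to Scd1 ratio per kb was 5.48 ± 0.477 in controls (SD, n = 4) and 5.70 ± 0.577 in KO (SD, n = 8; exact permutation p = 0.511).

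A list of 24 further genes of the same pathways (among them sterol export and esterification, proteases of the Srebf products, nuclear receptors for sterols, and further elongation and activation enzymes) showed 7 higher and 17 lower in KO, against 49.4% of all genes higher. None passed the adjusted threshold. 3 of 24 were past the unadjusted one (12.5%, against 7.66% of all genes) and 1 by the exact permutation test (4.17%, against 7.23%). Acacb, the mitochondrial acetyl-CoA carboxylase, had a log2 fold change of 0.27 ± 0.093 (SE, adjusted edgeR p = 0.616, exact permutation p = 0.0202). Mbtps2, the site-2 protease that releases the Srebf products, had -0.13 ± 0.055 (SE, edgeR adjusted p = 0.616, exact permutation p = 0.0606). Acss2, which makes acetyl-CoA from acetate, had -0.11 ± 0.047 (SE, edgeR adjusted p = 0.645, exact permutation p = 0.0788).

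**Figure D2:**
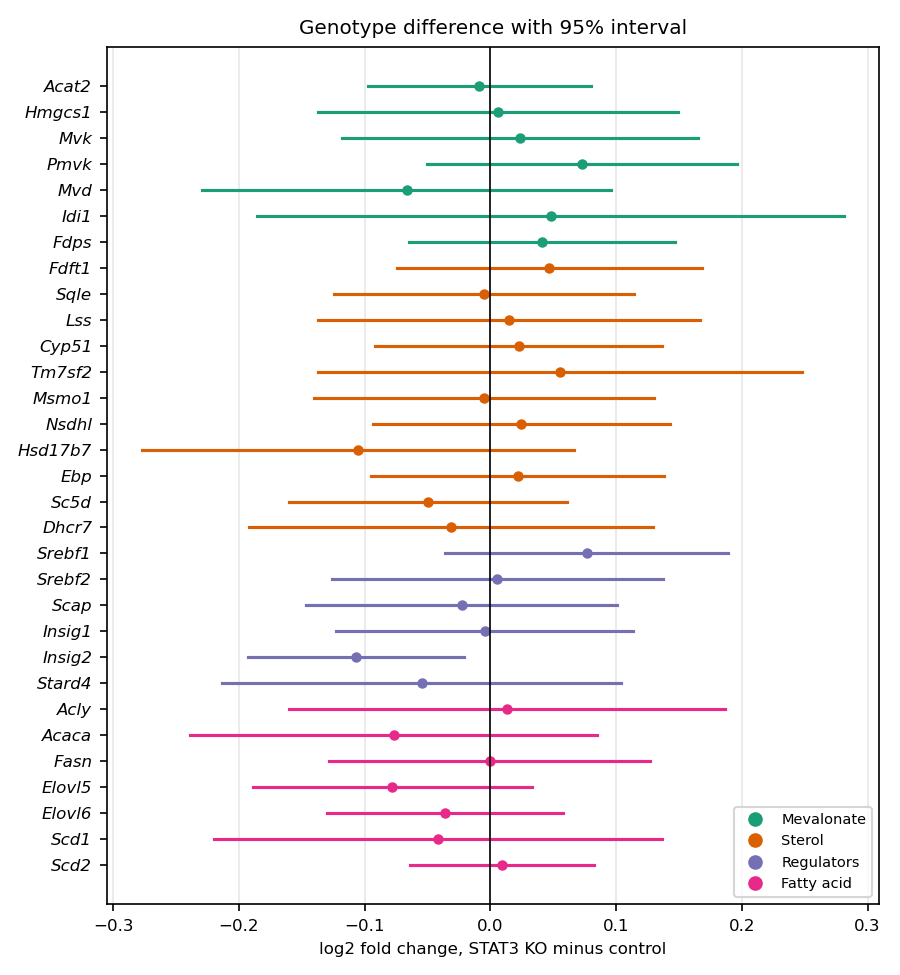
Log2 fold change (KO minus control) of the 31 genes by role, from the edgeR quasi-likelihood fit; points are estimates and lines 95% intervals. Only the interval of Insig2, -0.19 to -0.021, lies on one side of 0.

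These genes varied between animals of the same genotype. The SD of log2 CPM over the 12 libraries had a median of 0.10 for the 31 genes, against 0.12 for all genes tested and 0.094 for the 10545 genes in the same range of mean CPM, so the genes as a group were not unusually variable. The SD was lowest in Scd2 (0.052) and Acat2 (0.054) and highest in Idi1 (0.19). Counting error was 0.36% of the mean in Scd2, whose coefficient of variation was 3.59%, and 0.90% in Scd1, whose coefficient of variation was 10.2%. It made up more of the spread in less abundant or steadier genes, with 4.28% of a coefficient of variation of 5.64% in Ebp, 2.52% of 3.78% in Acat2 and 6.15% of 12.6% in Idi1. KO 6 was the lowest library for 15 of the 31 genes, 9 of them mevalonate or sterol enzymes, and control 3 was lowest for a further 4 of these enzymes. KO 8 was highest for 12 genes and lowest for 5 (Scap, Srebf1, Srebf2, Fasn and Tm7sf2), the last 5 all with a transcript GC content between 56.5% and 59.1%. Other genes of high GC content went both ways. Pmvk (56.95% GC) was highest in KO 8. Mvd (59.28%) and Mvk (59.58%) deviated there from their means by 0.12 and -0.12 on the log2 scale.

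**Figure D3:**
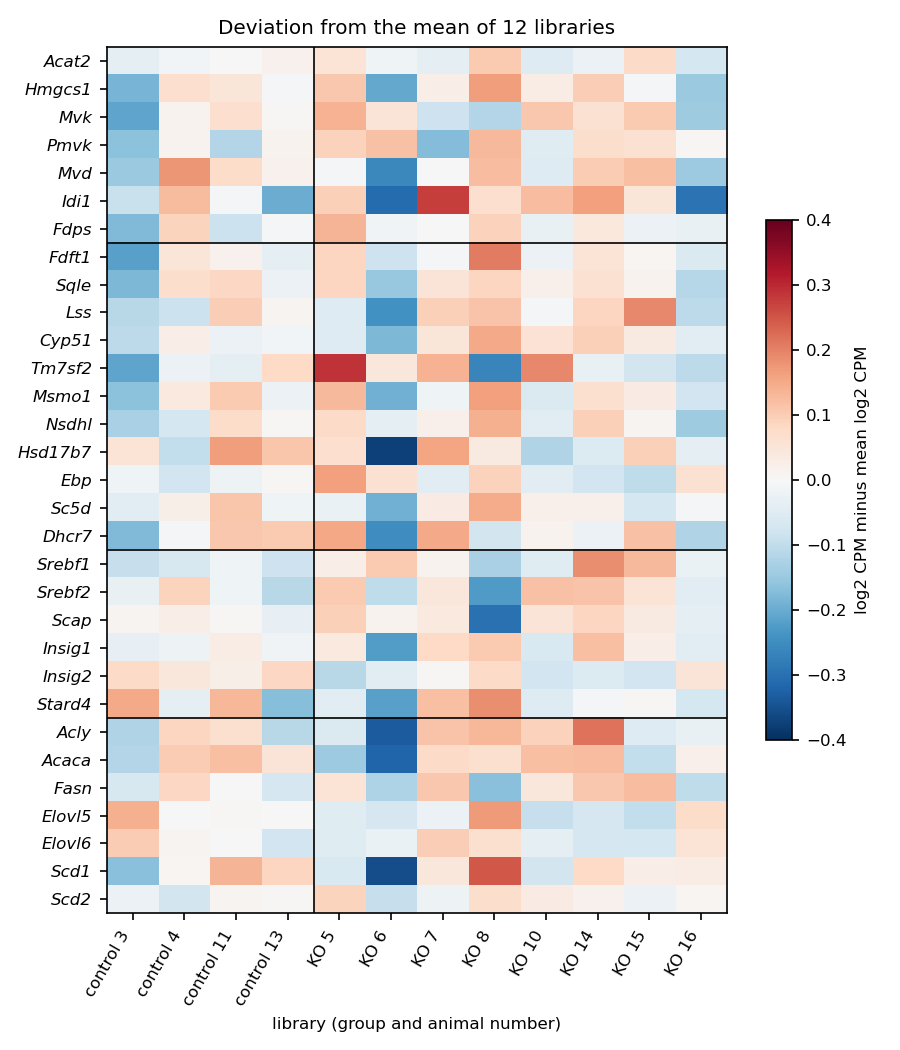
Deviation of each gene from its own mean over the 12 libraries (colour, log2 CPM), with genes in rows by role and libraries in columns by group. KO 6 is blue over most enzymes, with a median of -0.18 in the sterol group, and control 3 over the mevalonate and sterol enzymes, with medians of -0.17 and -0.13. In KO 8 most enzymes are red whereas Scap, Srebf2 and Srebf1 are blue.

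Several of the enzymes went up and down with Hmgcs1 from animal to animal, at an unadjusted threshold. When all other genes tested were ranked by the correlation of their log2 CPM with Hmgcs1 over the 12 libraries, Sqle was first of 15452 and Msmo1 was the next. Sqle had r = 0.96 (Spearman rho = 0.95, permutation p = 1e-05, the smallest the 100000 resamples can give, adjusted p = 0.155). Msmo1 had r = 0.92 (rho = 0.92, permutation p = 2e-05, adjusted p = 0.155). The values show this directly. Hmgcs1 was at 362.0, 367.4 and 377.0 CPM in KO 6, control 3 and KO 16, the 3 lowest libraries, and Sqle was at 109.4, 107.4 and 112.4 CPM in the same 3, against at least 119.6 CPM in all others. At the other end, KO 8 had the highest Hmgcs1 (468.4 CPM), Sqle (129.1 CPM) and Msmo1 (168.0 CPM). Fdft1, squalene synthase, had rank 8 (r = 0.88, rho = 0.94, permutation p = 3e-05, adjusted p = 0.155). Mvd, which makes isopentenyl diphosphate, ranked 21 (r = 0.84, rho = 0.66, permutation p = 0.00059, adjusted p = 0.304), and Cyp51, the lanosterol demethylase, ranked 41 (r = 0.81, rho = 0.60, permutation p = 0.00112, adjusted p = 0.326).

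Of the 30 genes other than Hmgcs1, 16 had a positive r with an unadjusted permutation p below 0.05 (53.3%), against 4.87% of all genes tested, and 7 were among the 100 nearest genes. Without KO 6 it was 10 of 30 (33.3%), against 5.37% of all genes. These 16 were 3 of 6 mevalonate genes, 8 of 11 sterol genes, 4 of 7 fatty acid genes (Acly, Scd1, Scd2 and Acaca) and, of the regulators, Insig1 (r = 0.77, rho = 0.72, permutation p = 0.0017, adjusted p = 0.331). No gene of the whole table passed the adjustment, 0% of 15452 genes, by the permutation test or by edgeR with Hmgcs1 as a covariate (smallest adjusted p = 0.125), against 1400 and 1478 genes at an unadjusted p below 0.05. A gene alone at the smallest p that the 100000 resamples can give has an adjusted permutation p of 0.155. The permutation test therefore could not call such a gene, and its lack of calls does not decide for single genes. Sqle was also first without control 4, without KO 6 and without KO 8, the single libraries left out here. With the 2 libraries farthest from the median of Hmgcs1 left out (KO 6 and control 3), r was 0.92 for Sqle, 0.82 for Msmo1 and 0.85 for Fdft1, and in the 8 KO alone r was 0.98 for Sqle, which was again first. For Cyp51, Acly, Sc5d, Scd2, Scd1, Lss, Dhcr7 and Acaca, r fell to between 0.08 and 0.57 without those 2 libraries and thus rested in good part on them. Without KO 6 the adjusted test called 4 genes, 2 of them among the 31, Sqle and Fdft1. The smallest adjusted permutation p was then 0.0386, under the same limit of the resamples. The regulators encoding the transcription factors and their escort were not near Hmgcs1 in all 12 libraries, with r = 0.19 for Srebf2, -0.058 for Srebf1 and -0.19 for Scap. This rested on KO 8 for 2 of them, since without it r was 0.72 for Srebf2, 0.61 for Scap and 0.16 for Srebf1.

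**Figure D4:**
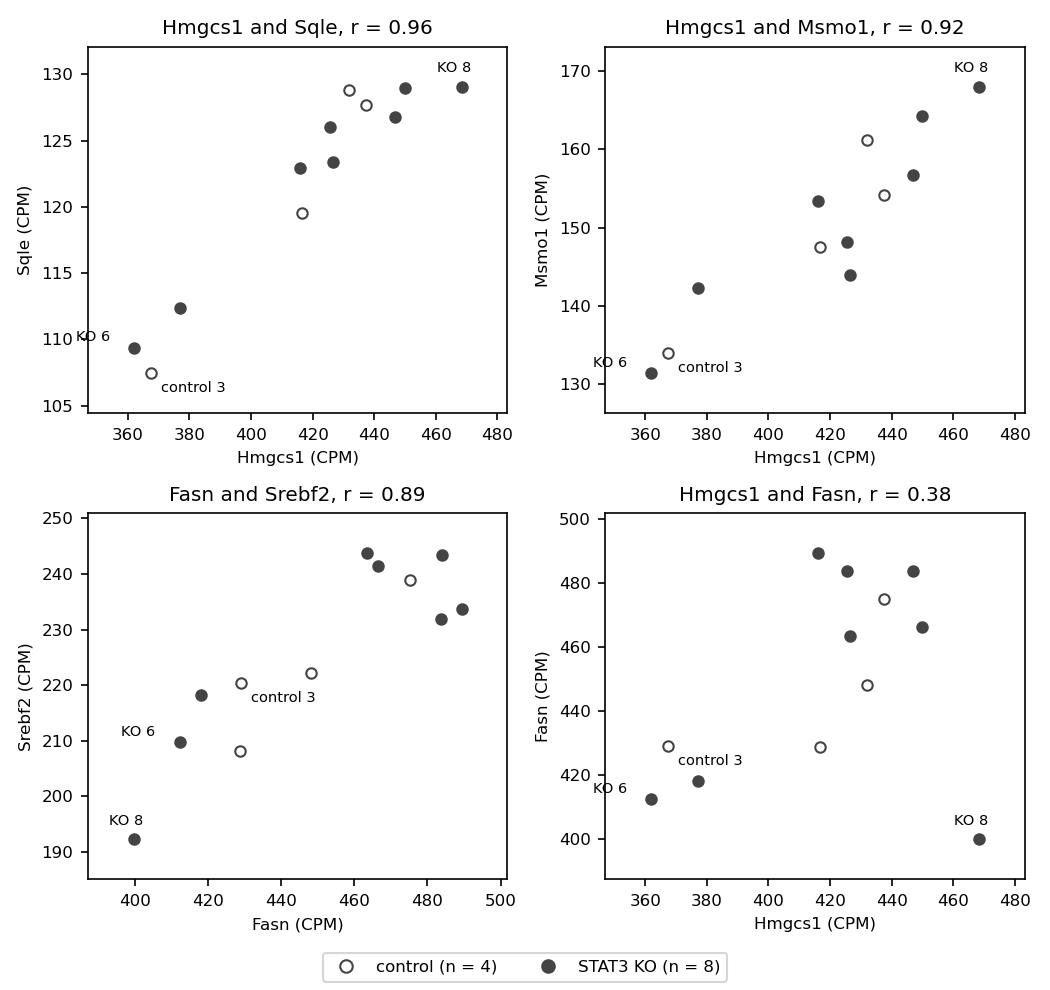
CPM of pairs of genes in the 12 libraries, open for control (n = 4) and filled for KO (n = 8), with KO 6, KO 8 and control 3 named. Hmgcs1 rises with Sqle (r = 0.96) and Msmo1 (r = 0.92) in both groups, Fasn rises with Srebf2 (r = 0.89), and in the plot of Hmgcs1 against Fasn KO 8 lies away from the other libraries (r = 0.38 with it, 0.79 without it).

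Fasn, the anchor of the fatty acid branch, was nearest among these genes to Srebf2, which had rank 3 of 15452 (r = 0.89, rho = 0.79, permutation p = 0.00012, adjusted p = 0.0721, r = 0.80 without KO 8 and KO 6, the 2 libraries farthest from the median of Fasn). The rank of Srebf2 was not stable, at 14 without control 4, 26 without KO 6, 79 in the 8 KO alone and 18 of 14198 with GC centring. Srebf2 was at 192.2 CPM in KO 8, where Fasn was at its lowest (399.7 CPM), and at 232.0 to 243.7 CPM in the 6 libraries with Fasn above 450 CPM. Idi1 (r = 0.73, rho = 0.70, permutation p = 0.00853, adjusted p = 0.206), Scap (r = 0.71, rho = 0.76, permutation p = 0.00058, adjusted p = 0.117) and Dhcr7 (r = 0.65, rho = 0.62, permutation p = 0.0244, adjusted p = 0.287) were the other 3 with a positive r at an unadjusted p below 0.05. That is 4 of 30 (13.3%), against 6.63% of all genes. 2 had a negative r at that level, Elovl5 (r = -0.68, rho = -0.66, permutation p = 0.0145, adjusted p = 0.243) and Ebp (r = -0.60, rho = -0.76, permutation p = 0.0418, adjusted p = 0.348), 6.67% beside 6.76% of all genes. Again 0% of all genes passed the adjustment (smallest adjusted p = 0.0636), with 2069 at an unadjusted p below 0.05, and edgeR with Fasn as a covariate called 0. The same limit of the resamples held for the permutation test with Fasn.

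This picture of Fasn turned on KO 8. Without that library, 13 of 30 genes had a positive r with Fasn at an unadjusted permutation p below 0.05 (43.3%), against 4.48% of all genes, Idi1 was the nearest of all genes (r = 0.93), and r with Hmgcs1 rose from 0.38 to 0.79. The correlation with Fasn also followed base composition: over genes, which are not independent replicates, the r of a gene with Fasn rose with its transcript GC content (rho = 0.32) and the r with Hmgcs1 fell with it (rho = -0.27). The r with Fasn rose with transcript length too (rho = 0.27), and the r with Hmgcs1 did so little (rho = 0.0025), and no alternative centred by length was run. The levels were also centred within 20 bins of GC content in each library, an alternative chosen after seeing the data. With all 12 libraries and this centring, 14 of 30 genes had a positive r with Fasn at an unadjusted p below 0.05 (46.7%), against 5.88% of all genes. Idi1 was first of 14198 (r = 0.90), Srebf2 had r = 0.85, Acly r = 0.78, Cyp51 r = 0.77, Hmgcs1 r = 0.75 and Sqle r = 0.74. With Hmgcs1, 17 of 30 (56.7%) had a positive r at that level, against 4.18% of all genes, Sqle (r = 0.96) and Msmo1 (r = 0.90) stayed first and next, and the r of Srebf2 rose from 0.19 to 0.59. Of 20 relations of both anchors with 8 lists of cell type or region markers, the library total and the share of reads on genes, none passed the adjustment. The nearest was Fasn with the choroid plexus genes (r = -0.70, rho = -0.68, permutation p = 0.00619, adjusted p = 0.124, r = -0.48 without the 2 farthest libraries). Hmgcs1 had r = 0.51 with astrocyte genes (rho = 0.41, permutation p = 0.0912, adjusted p = 0.671, r = 0.40 without the 2 farthest libraries) and r = 0.38 with the share of reads on genes (rho = 0.43, permutation p = 0.222, adjusted p = 0.676, r = 0.69 without the 2 farthest libraries). Oligodendrocyte genes had r = 0.42 with Hmgcs1 (rho = 0.39, permutation p = 0.168, adjusted p = 0.671) and -0.27 with Fasn (rho = -0.20, permutation p = 0.396, adjusted p = 0.676).

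The promoters of both anchors, of Srebf2 and Mvd, and of Mvk and Insig2, which went opposite ways, are shown because Srebf proteins bind a sterol response element, often with the CCAAT-binding factor NF-Y at its side. RefSeq windows for the GRCm38.p6 build were found for 25 of the 31 genes (33 windows of 250 bases before an annotated start). None was found for Fdps, Fdft1, Sqle, Stard4, Scd1 and Scd2. Each line gives 150 bases of such a window with no annotated exon, 5′ to 3′ along the gene, ending 1 base before the start, or 89 bases before it for Srebf2. Capitals mark CCAAT, on either strand (so also as ATTGG), and the sterol response element searched, TCACNCCAC, on either strand. In Fasn a CCAAT and an ATTGG share bases.
Hmgcs1, chr13:119690201-119690350, plus strand: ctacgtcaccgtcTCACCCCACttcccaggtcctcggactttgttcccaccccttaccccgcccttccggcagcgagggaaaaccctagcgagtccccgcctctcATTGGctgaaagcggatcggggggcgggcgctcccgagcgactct
Mvd, chr8:122443423-122443572, minus strand: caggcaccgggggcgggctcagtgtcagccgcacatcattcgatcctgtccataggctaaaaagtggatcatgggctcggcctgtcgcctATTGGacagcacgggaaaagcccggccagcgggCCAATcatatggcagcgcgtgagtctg
Mvk, chr5:114444119-114444268, plus strand: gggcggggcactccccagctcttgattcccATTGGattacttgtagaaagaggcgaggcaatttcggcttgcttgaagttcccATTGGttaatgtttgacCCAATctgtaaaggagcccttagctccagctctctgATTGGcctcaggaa
Srebf2, chr15:82147031-82147180, plus strand: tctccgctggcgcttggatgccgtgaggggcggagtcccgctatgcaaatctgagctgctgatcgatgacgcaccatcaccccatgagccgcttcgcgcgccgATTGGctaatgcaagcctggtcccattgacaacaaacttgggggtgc
Fasn, chr11:120824548-120824697, minus strand: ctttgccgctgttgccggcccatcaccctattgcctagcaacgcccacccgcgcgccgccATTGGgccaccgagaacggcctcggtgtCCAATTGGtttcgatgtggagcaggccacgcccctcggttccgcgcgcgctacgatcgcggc
Insig2, chr1:121332590-121332739, minus strand, 1 of its 3 windows: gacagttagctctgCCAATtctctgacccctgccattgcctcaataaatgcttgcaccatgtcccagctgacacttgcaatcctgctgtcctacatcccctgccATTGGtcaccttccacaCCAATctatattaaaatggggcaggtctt
The stretch of Hmgcs1 held 1 match to the sterol response element and 1 CCAAT, that of Mvd 2 CCAAT, that of Mvk 4, that of Srebf2 1, and those of Fasn and Insig2 3 each. Over the 250 bases, CCAAT was present in 14 of the 18 windows of mevalonate and sterol genes (77.8%) and in 21 of all 33 windows (63.6%), against 34.6% of the 14848 windows of genes tested. GGGCGG, the GC box, was also searched on both strands and can share its outer bases with CCAAT on one strand. It was in 15 of the 18 (83.3%) and in 23 of all 33 windows (69.7%), against 55.2%. TCACNCCAC was in 1 of the 33 (3.03%), Hmgcs1, against 1.02%. A match is a run of letters and not a measured site. Only this form of the element was searched, so a window without a match may still hold a variant of it.

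Pairs of genes were then compared by role. Over the 465 pairs of the 31 genes, the median r was 0.29, against 0.0099 over all pairs of genes tested, and 113 pairs (24.3%) lay above 0.57, the 95th percentile of all pairs. These and the pair values below are descriptions over 12 libraries that share each library's composition, with no test. The median was 0.52 for pairs of sterol enzymes (55 pairs), 0.41 for pairs of mevalonate genes (21 pairs), 0.46 for mevalonate and sterol enzymes as 1 set (153 pairs), 0.18 for pairs of fatty acid genes (21 pairs) and 0.00058 for pairs of regulators (15 pairs). Between mevalonate or sterol enzymes and fatty acid genes it was 0.29, but 0.14 without KO 6. Without KO 6 the order of the groups changed, with 0.37 for pairs of sterol enzymes, 0.50 for pairs of mevalonate genes, 0.031 for pairs of fatty acid genes and -0.15 for pairs of regulators. Without KO 6 and KO 8 these were 0.39, 0.52, -0.080 and 0.14. Without KO 6 the median over all 465 pairs was 0.19 and over mevalonate and sterol enzymes 0.43, and without KO 8 it was 0.36 and 0.50. With GC centring it was 0.34 and 0.46. In the 8 KO alone, mevalonate and sterol enzymes had a median of 0.47. Acly was close to Cyp51 (r = 0.88, rho = 0.89) and to Acaca (r = 0.87, rho = 0.83), the next enzyme toward fatty acids, and Srebf2 to Scap, its escort (r = 0.85, rho = 0.88). With GC centring these 3 were at 0.86, 0.89 and 0.81. Ebp and Tm7sf2 had the lowest r with Hmgcs1 of the sterol enzymes, -0.010 and 0.17. Without KO 8 these were -0.20 and 0.52, and with GC centring -0.13 and 0.41. Hsd17b7, next at 0.42, was the lowest without KO 6 (-0.017, against 0.15 for Ebp and 0.26 for Tm7sf2). Without KO 8 and with GC centring it was at 0.43 and 0.36, both below Tm7sf2.

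A smaller pattern set other genes against each other. Elovl5, Elovl6 and Insig2 were low where Mvk, mevalonate kinase, was high, with r = -0.85 between Mvk and Elovl5 (rho = -0.76), -0.85 between Mvk and Elovl6 (rho = -0.69) and -0.79 between Mvk and Insig2 (rho = -0.85). Control 3 showed it most, with the lowest Mvk of all libraries (23.7 CPM), the highest Elovl6 (137.1 CPM) and the highest Elovl5 of the controls (159.4 CPM). Without control 3 the 3 values were -0.79, -0.80 and -0.77. Elovl5 and Insig2 rose together (r = 0.81, rho = 0.84). The same genes differ in base composition, with 59.6% GC in the transcript of Mvk and 44.8%, 44.0% and 46.0% in those of Elovl5, Elovl6 and Insig2. With GC centring the 3 negative values were -0.62, -0.77 and -0.60, and r between Elovl5 and Insig2 was 0.78. The difference of high and low GC genes, taken per library, had an r of -0.75 with Elovl5 (rho = -0.73), of -0.80 with Sc5d (rho = -0.66) and of 0.87 with Scap (rho = 0.62). These 3 were the largest in size of the 31 genes and were chosen after their values were seen, and none of the 31 relations passed adjustment. Without KO 8 and KO 6, the 2 farthest libraries, these were -0.51, -0.67 and 0.60.

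**Figure D5:**
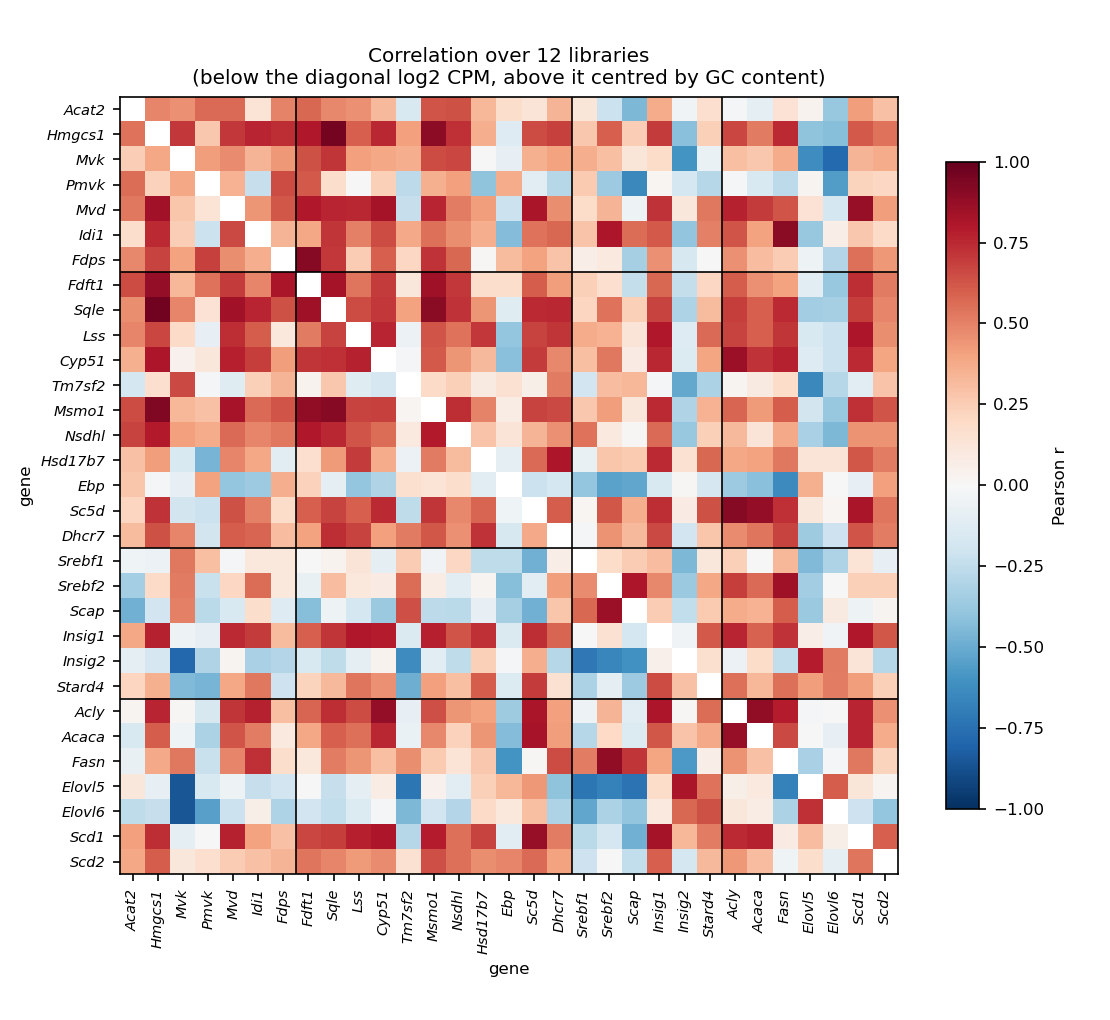
Pearson r over the 12 libraries for every pair of the 31 genes, ordered by role, from log2 CPM below the diagonal and from values centred by GC content above it. The block of mevalonate and sterol enzymes is mostly red on both sides (median 0.46 in each), Mvk with Elovl5 and Elovl6 is deep blue below the diagonal, and Fasn is redder above it with 9 of the 11 sterol enzymes, Tm7sf2 (0.46 below, 0.19 above) and Ebp (-0.60 and -0.64) being the exceptions.

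Sex gave a further comparison, with 6 females and 6 males and genotype kept in the fit. 13 genes were called for sex (0.0841% of all genes tested), none of them among the 31, and none of the 31 had an unadjusted p below 0.05 (edgeR quasi-likelihood test), against 7.2% of all genes. 21 of the 31 were higher in males, against 49.6% of all genes, including all 7 mevalonate genes and 7 of 11 sterol genes. Mvd had the largest of these differences, with 24.8 ± 1.25 CPM in females and 26.9 ± 2.71 CPM in males (SD, n = 6 each). Its log2 fold change was 0.13 ± 0.067 (SE, edgeR adjusted p = 0.727). KO 6, the library with the low sterol enzymes, is a male. Without it 8 of the 31 were past the unadjusted threshold, all higher in males (Hmgcs1, Mvd, Fdft1, Lss, Cyp51, Msmo1, Acly and Scd1), against 8.73% of all genes in that fit, and none after adjustment. The genotype difference did not differ between the sexes in any of the 31 at an unadjusted p below 0.05, against 5.49% of all genes, and 0% of genes were called. 8 of the 31 had a higher genotype difference in males and 23 a lower one, against 50% of all genes higher, with a median interaction of -0.081 on the log2 scale. This median was -0.018 without KO 6, -0.019 without control 3 and -0.12 without control 13, the last 2 fits each with a single female control. With 2 controls of each sex, the SE of these interactions had a median of 0.12.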

How the data were processed

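RNA from DR tissue of 12 mice was sequenced, 1 library per animal. The authors deposited raw gene counts per library, made from single reads aligned to mm10 with STAR 2.5.0b; the submitters' processing notes also name bcl2fastq and DESeq2 1.6.3. The counting tool, annotation and strand setting are not given in the sources used here. Of the reads in the files, 84.2 to 86.1% lay on genes; rows that name no gene were left out.

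Groups came from the labels. Genes passed edgeR's filterByExpr (15453 of 24421) and were tested with edgeR 4.0.16 (quasi-likelihood, TMM, Benjamini-Hochberg, threshold 0.05) in R 4.3.3, with exact two-sided permutation over the 495 splits of the animals. Sex was fitted beside genotype, and their interaction in a further fit. Correlations used log2 CPM (prior count 2), with 100000 seeded permutations and adjustment over all genes. The fits and permutations were checked on simulated data. No 2 libraries were copies: over the 66 pairs and 13400 genes, the mean chi-square ratio was at least 5.24. Counting intervals and floors cover counting error only.

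Alternatives were DESeq2 1.42.0, limma 3.58.1 (voom with quality weights), RLE or library-size scaling, no filter beyond 1 count, sex as a covariate, TMM or a prior count of 0.5 for log2 CPM, and leaving out each library. GC centring (14199 genes, 20 bins), the anchor as a covariate and the anchors without KO 6 or KO 8 were chosen after seeing the data. The 31 genes and the lists were chosen with earlier results of these data known. Genotype statistics were named for genes at an unadjusted p below 0.05 and the 3 with the largest fold change; Pmvk, Srebf1 and the other genes given beside these were chosen after their values were seen. Promoters are from RefSeq tables of GRCm38.p6.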

Additional observations from a re-analysis of the deposited data

Results flagged for a closer look

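In 2 of the 62 groups of values examined (31 genes in controls and in KO), 1 library stood far from the others of its group, where chance gives 3.1. Scap was at 75.2 CPM in KO 8, the lowest of the 8 KO, and its gap to the next was 0.666 of the range of that group on the log2 scale. KO 8 was also the library in which genes of high GC content were low, and the transcript of Scap holds 59.1% GC; the part of base composition in this value was not tested. Elovl5 was at 159.4 CPM in control 3, the highest of the 4 controls, with a gap of 0.979 of the range, the other 3 controls lying between 144.7 and 145.0 CPM.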

How the results depend on the processing

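With 1 library left out, the median log2 fold change of the 31 genes was positive in 5 of 12 cases (-0.014 to 0.024, all genes -0.0025 to 0.0053), with 10 to 21 of the 31 higher in KO. For genotype, DESeq2 called 6 genes, and leaving out 1 library gave 0 to 1. Of the 31 genes, 0 were past the unadjusted threshold with library size alone, and 0 to 3 with 1 library left out (0 without control 3, 3 without KO 8). Insig2 lost its unadjusted call with library size alone and without control 3, its exact permutation p was not below 0.05 in 9 of 12 cases with 1 library left out, and Elovl5 gained one without KO 8. For sex, DESeq2 called 24 genes against 13, and leaving out 1 library gave 10 to 13. For the interaction, DESeq2 called 2 genes, and leaving out 1 library gave 0 to 37, the 37 without control 11, where 1 male control was left and was assumed to vary like the other groups. For the correlation with Hmgcs1, the range was 0 to 4 genes, the 4 without KO 6. These counts are limited by the smallest permutation p that the resamples can give. The median r over pairs was 0.34 with GC centring and 0.19 (without KO 6) to 0.36 (without KO 8) with 1 library left out. The cause of these changes was not tested. The groups share no replicate number, and the labels give no litters although the mice were littermates. No paired analysis was therefore made, and litter was not in the fits. Depth limited Ebp and Acat2 most, where counting error was 4.28% of a coefficient of variation of 5.64% and 2.52% of 3.78%.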
